A study of Homo sapiens with 12 samples.

Results

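Cisplatin (CDDP) was compared with vehicle in U2OS cells that had received a scramble siRNA (siCtl), the control arm of a study of the corepressors NCoR and SMRT. U2OS is a human osteosarcoma line, which the study chose for its functional p53. Of 12 arrays in the series, 4 belong here, namely 2 siCtl+vehicle arrays, labelled as untreated, and 2 siCtl+CDDP arrays from cells exposed to 100 μM CDDP for 6 h, taken by their sample labels. The siRNA was transfected with Lipofectamine 2 days before treatment, so vehicle and CDDP cells alike carried it, and all cells grew in complete medium. The other 8 arrays are of cells with siRNA mixes against NCoR (siNCoR) or SMRT (siSMRT), with and without the same CDDP treatment, and serve below for side-by-side values. Each group has 2 arrays, described in the study as biological replicates of one cell line, and levels are probe intensities from one-colour bead arrays on a log2 scale.

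CDDP is a platinum drug that forms crosslinks between bases of DNA. Such lesions block elongating RNA polymerase II, engage the checkpoint kinases and p53, and set off stress kinase signalling that induces immediate-early genes within hours. Since a polymerase has to travel the whole transcription unit before a transcript is complete, blocking lesions are known to reduce long transcripts more than short ones. Corepressors hold histone deacetylase complexes on nuclear receptors and other factors, and a scramble siRNA is designed to match no gene.

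Raw array medians of the siCtl arrays ran from 54.1 to 65.3, and 27.3% to 31.4% of probes exceeded a signal of 100, the floor used here for a measurable probe. The number of arrays limits the precision: the median standard error (SE) of a log2 fold change was 0.114. Markers of the labelled cell type were present, since 12 of 16 mesenchymal markers with a probe lay above the floor in all 4 siCtl arrays, against 1 of 12 epithelial, 2 of 11 leukocyte and 1 of 8 endothelial markers. In arrays of a whole culture, fewer cells of a kind and less RNA per cell cannot be told apart.

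Of 9808 genes past the floor, 1782 (18.2%) were higher and 1903 (19.4%) lower with CDDP at an adjusted p under 0.05 in limma, a linear model fitted across all genes with Benjamini-Hochberg adjustment. Large changes were fewer and leaned downward, with 144 genes (1.47%) higher and 328 (3.34%) lower by at least 1 log2 unit. In every one of the 3685 genes called, both CDDP arrays lay on the same side of both vehicle arrays, as they did in 69.0% of all genes tested. The split between higher and lower depended on how arrays were scaled: 48.4% of called genes were higher with quantile normalization, 26.1% when each array was scaled to the median of all its probes ("all-probe scaling", 716 higher and 2029 lower), 59.0% when it was scaled to the median of probes past the floor ("kept-probe scaling", 2477 and 1722) and 42.4% with the authors' processed values. These scalings moved the median log2 change over all genes from 0.03 to -0.06 and 0.11. Medians of some gene lists moved further. That of cytosolic ribosomal proteins went from -0.01 to 0.25 with kept-probe scaling and that of clock genes from -0.35 to -0.53 with all-probe scaling. The direction of changes up to about 0.25 log2 unit can thus rest on the scaling. Log2 fold changes below are CDDP minus vehicle. Where both arrays of one group lay under the floor, the change is given as a bound, "at least N-fold", against the higher of the floor and the probe's own level. Of the genes called higher 175 had both vehicle arrays below the floor, and of those called lower 238 had both CDDP arrays below it. For these the change and the filter are not independent.

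The 10 genes that rose most, SHISA2 (3.66), ATF3 (3.36), C11orf96 (2.76), FOSB (at least 5.17-fold higher), HBEGF (2.51), SGK1 (2.49), HAS3 (at least 3.73-fold higher), SAT1 (2.38), GDF15 (2.31) and NR4A2 (2.17), were followed by 35 further genes with rises of 1.55 to 2.16 log2 units. One part of these encodes transcription factors and their cofactors. FOS, the AP-1 subunit of the classical immediate-early response, had levels of 7.79 and 7.68 with vehicle and 10.35 and 9.44 with CDDP. Both CDDP arrays were well above both vehicle arrays, although they differed from each other by nearly 1 log2 unit (log2 fold change 2.16, SE 0.23, limma adjusted p = 2.24e-05). CEBPA, a C/EBP factor of growth arrest and differentiation, was under the floor with vehicle (6.15 and 5.82 with vehicle and 8.30 and 7.77 with CDDP) and became at least 3.41-fold higher (adjusted p = 3.67e-06). IRF1, an interferon regulatory factor, stood at 8.31 and 8.62 with vehicle and 10.26 and 10.24 with CDDP. Its CDDP arrays were nearly identical and lay far above vehicle (log2 fold change 1.78, SE 0.13, adjusted p = 1.51e-06). Other factors in this range were the homeobox gene HOXD1 (2.00), the zinc finger genes ZNF296 (1.90) and ZNF280A (1.95), SOX17 (at least 2.63-fold higher), the small MAF protein MAFF (1.72), the nuclear IκB protein NFKBIZ (1.58) and SERTAD1 (2.00), a regulator of CDK4 and E2F activity.

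Secreted factors and their enzymes made up another part of the same range. PTGS2, the inducible cyclooxygenase of prostaglandin synthesis, measured 6.64 and 6.63 with vehicle and 9.12 and 8.47 with CDDP. Vehicle arrays agreed closely and both CDDP arrays exceeded them (log2 fold change 2.16, SE 0.17, adjusted p = 2.24e-06). The cytokines IL11 (1.87), IL12A (at least 3.07-fold higher) and IL1A (at least 1.70-fold higher) rose, as did the vasodilator peptide gene ADM (1.86). ADM was already well expressed with vehicle and had levels of 9.96 and 10.08 with vehicle and 11.93 and 11.84 with CDDP. Signal modulators rose too: RGS2 (2.03), which shortens Gq signalling, the pseudokinase TRIB1 (1.67), the cytokine signalling inhibitor SOCS1 (1.56), the Ras-related RASL11B (1.97), the polo-like kinase PLK2 (1.56) and the estrogen-responsive G protein-coupled receptor GPER1 (1.61). The antiproliferative TOB1, which binds the CCR4-NOT deadenylase, had levels of 9.50 and 9.15 with vehicle and 11.54 and 11.30 with CDDP (log2 fold change 2.10, SE 0.13, adjusted p = 4.43e-07). CA2, a cytosolic carbonic anhydrase of osteoclasts and red cells, had one of the smallest errors in this range, with 9.41 and 9.50 with vehicle and 11.55 and 11.44 with CDDP (log2 fold change 2.04, SE 0.09). Metabolic and neuronal genes completed it, among them the glycogen-targeting phosphatase subunit PPP1R3C (1.94), the NMDA receptor subunit GRIN2C (at least 2.55-fold higher), the synaptic immediate-early gene ARC (1.70) and the adhesion protein FLRT3 (1.79). The BH3-only gene PMAIP1 (1.80), the hypoxia-responsive ANKRD37 (1.61), TSPYL2 (1.59), LSMEM1 (at least 1.72-fold higher), FAM43A (1.61), RSRP1 (1.66) and FRG2B (at least 1.29-fold higher) were also there. FRG2B belongs to a family of near-identical copies, so its probe may read several of them.

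**Figure D1:**
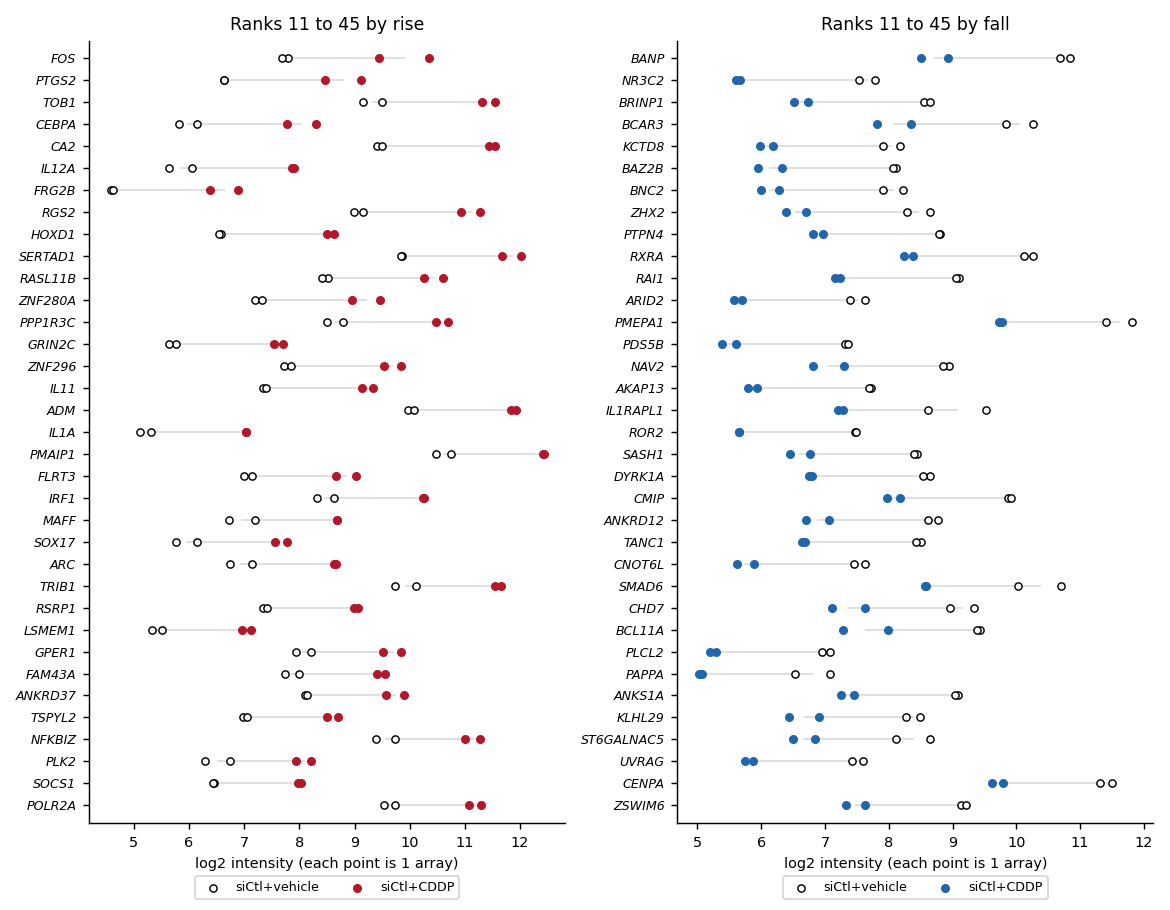
Log2 intensity (x axis) of the 35 genes ranked 11 to 45 by rise with CDDP (left) and by fall (right), 1 row per gene. Open circles are the 2 siCtl+vehicle arrays and filled circles the 2 siCtl+CDDP arrays, joined by a grey line between the group means. In every row the filled circles lie to one side of the open ones.

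One of the last of these 35 was POLR2A, the catalytic subunit of RNA polymerase II itself. Its levels were 9.73 and 9.53 with vehicle and 11.08 and 11.29 with CDDP. Both CDDP arrays lay more than 1 log2 unit above both vehicle arrays (log2 fold change 1.55, SE 0.11, adjusted p = 1.15e-06). POLR2A stood apart from the other subunits and general factors, a list of 44 tested genes of which 9 were higher, 8 lower and the rest not called, with a median of 0.03 against 0.03 over all genes. In that list the initiation factor GTF2B (0.97) and the subunit POLR2C (0.54) also rose, whereas TAF4 of TFIID (-1.64), the TFIIF subunit GTF2F2 (-0.89) and the TFIIE subunits GTF2E1 (-0.64) and GTF2E2 (-0.57) fell. The sign of this median turned with scaling (-0.04 with all-probe scaling). The count of higher members fell to 4 without siCtl+vehicle replicate 2. With all-probe and kept-probe scaling it was 3 and 11.

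Falls were led by ZMIZ1 (-2.90), JARID2 (-2.90), ATXN1 (at least 3.71-fold lower), MLLT10 (-2.44), RGL1 (at least 4.46-fold lower), ZMYND8 (at least 4.16-fold lower), GLI2 (at least 3.83-fold lower), SLC10A7 (at least 2.43-fold lower), PLPP3 (-2.06) and LRRC4C (-2.06), and the next 35 genes fell by 1.69 to 2.04 log2 units. BANP, a nuclear matrix protein that binds CpG-rich promoters, measured 10.84 and 10.69 with vehicle and 8.51 and 8.94 with CDDP. Its vehicle arrays were bright, and both CDDP arrays lay below them (log2 fold change -2.04, SE 0.17, adjusted p = 3.89e-06). Signalling scaffolds were frequent: BCAR3 (-1.97), a partner of p130Cas, the kinase-anchoring protein AKAP13 (at least 2.70-fold lower), SASH1 (-1.82), TANC1 (-1.80), ANKS1A (-1.72) and CMIP (-1.81). Chromatin and transcription regulators included the remodeller subunits BAZ2B (-1.95), ARID2 (at least 2.35-fold lower) and CHD7 (-1.78), the retinoic acid-induced RAI1 (-1.88), the zinc finger proteins BNC2 (-1.93), ZHX2 (-1.91) and BCL11A (-1.77), the cohesin regulator PDS5B (at least 2.10-fold lower) and ANKRD12 (-1.81). DYRK1A, a dosage-sensitive kinase of chromosome 21, had levels of 8.65 and 8.53 with vehicle and 6.75 and 6.80 with CDDP. The 2 arrays of each group lay close together (log2 fold change -1.81, SE 0.12, adjusted p = 8.46e-07). Neuronal genes with very long transcription units, BRINP1 (-1.98), IL1RAPL1 (-1.83), KCTD8 (at least 3.41-fold lower) and NAV2 (-1.84), fell as well, as did the phosphatase PTPN4 (-1.91), the inactive phospholipase PLCL2 (at least 1.68-fold lower), the receptor ROR2 (at least 2.31-fold lower), the protease PAPPA (at least 1.45-fold lower), the glycosyltransferase ST6GALNAC5 (-1.71), the autophagy gene UVRAG (at least 2.37-fold lower), KLHL29 (-1.71) and ZSWIM6 (-1.69). Replicates of some fallers were less tight: IL1RAPL1 measured 8.62 and 9.52 with vehicle and 7.20 and 7.27 with CDDP, and SMAD6, the inhibitory SMAD of BMP signalling, 10.70 and 10.03 with vehicle and 8.56 and 8.59 with CDDP. In both genes the CDDP arrays still lay below both vehicle arrays (SMAD6 log2 fold change -1.79, SE 0.29, adjusted p = 0.00048). CENPA, the centromeric histone H3 variant, was the only gene under 10 kb of the 35, with a transcription unit of 8.53 kb, and measured 11.49 and 11.32 with vehicle and 9.79 and 9.62 with CDDP (log2 fold change -1.70, SE 0.20).

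Genes that rose and genes that fell differed in the length of their transcription units. Length was taken from the gene start to the gene end in the RefSeq annotation of GRCh38.p14, which can exceed the transcript a probe reads, and was known for 9799 of the genes tested. The median was 15.0 kb for genes that rose, 102 kb for genes that fell and 26.9 kb for genes not called. By length class, 27.2% of genes under 5 kb were higher and 5.55% lower, and these shares were 20% and 9.96% from 20 to 50 kb, 5.92% and 29% from 50 to 100 kb, 2.82% and 53.6% from 100 to 200 kb and 2.3% and 62.6% from 200 to 500 kb. Above 500 kb, where there were only 107 genes, 1.87% were higher and 60.7% lower. The median log2 change passed from 0.16 under 5 kb through 0.08 at 20 to 50 kb to -0.52 at 200 to 500 kb. The median vehicle level also differed between these classes, from 8.88 under 5 kb to 8.0 at 200 to 500 kb on the log2 scale, and its part in the shares was not tested.

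**Figure D2:**
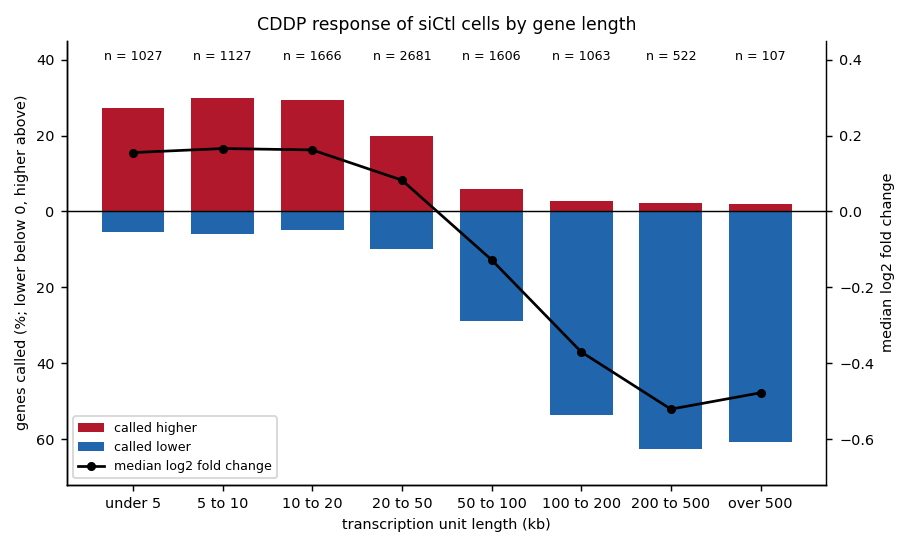
Share of genes called higher (upward bars, %) and lower (downward bars, %) with CDDP in siCtl cells by transcription unit length class (x axis, kb), with the number of genes above each class. Points joined by a line give the median log2 fold change of the class (right axis), which is above 0 under 50 kb and below 0 from 50 kb upward.

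The same ordering was seen among the largest changes and inside most gene families. Of the genes that fell by at least 1 log2 unit, 305 were 50 kb or longer, 12 were under 10 kb and 5 under 5 kb. Of those that rose by as much, 6 were 50 kb or longer and 79 under 10 kb. Among the 77 gene lists described here, 41 had at least 3 members called in each direction, and in 40 of these the members that fell were longer at the median than those that rose. The lists overlap, so this is a description. The part of length in the list counts was not tested, and those counts stand beside 18.2% higher and 19.4% lower over all genes. The 5 shortest genes that fell by at least 1 log2 unit were the histone gene H2BC7 (0.473 kb, at least 1.82-fold lower), ID3 (1.58 kb, -1.0), EBLN2 (1.68 kb, at least 1.53-fold lower), the SOCS-box gene SPSB2 (2.37 kb, -1.16) and TEX19 (4.53 kb, -1.66). ID3, which keeps basic helix-loop-helix proteins off DNA, was among the brightest genes, with 13.25 and 13.14 with vehicle and 12.12 and 12.28 with CDDP. Against the ordering, the longest genes that rose were OPCML (1118 kb, 0.29), SUPT3H (569 kb, 0.60), the matrix gene FRAS1 (487 kb, 0.39), SYNE2 (465 kb, 0.42), a nesprin of the nuclear envelope, and the adenylyl cyclase ADCY2 (434 kb, at least 1.11-fold higher). Their rises were small, and in siNCoR and siSMRT cells OPCML changed by -0.00 and 0.04. All 5 lost their call with all-probe scaling (limma adjusted p from 0.0606 to 0.56).

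Promoters of the genes that rose were compared with those of all tested genes, in RefSeq windows from 250 bases before to 50 bases after the gene start, which were at hand for 8075 tested genes, 106 of those that rose by at least 1 log2 unit and 279 of those that fell by as much. TATAAA, the core of the TATA box, was found on either strand in 21.7% of the former, in 4.30% of the latter and in 5.46% of all. TGACTCA, the AP-1 site, was in 6.60%, 2.15% and 3.18%. TGACGTCA, the full cAMP response element (CRE) that ATF and CREB factors bind, was in 4.72%, 3.58% and 3.52%. CACGTG (9.43%, 9.32% and 10.6%), CCAAT (40.6%, 32.3% and 37.6%) and the heat shock half-site pair TTCNNGAA (3.77%, 5.38% and 5.97%) gave the remaining shares. Among the genes at ranks 1 to 45 with a window, 38 risers and 39 fallers, TATAAA was in 26.3% and 12.8% and CACGTG in 18.4% and 2.56%. No test was made of these shares, and a match is a run of letters, not a site in use. None of the other motifs overlaps TATAAA in its letters, while AP-1 and CRE share their first letters.

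**Figure D3:**
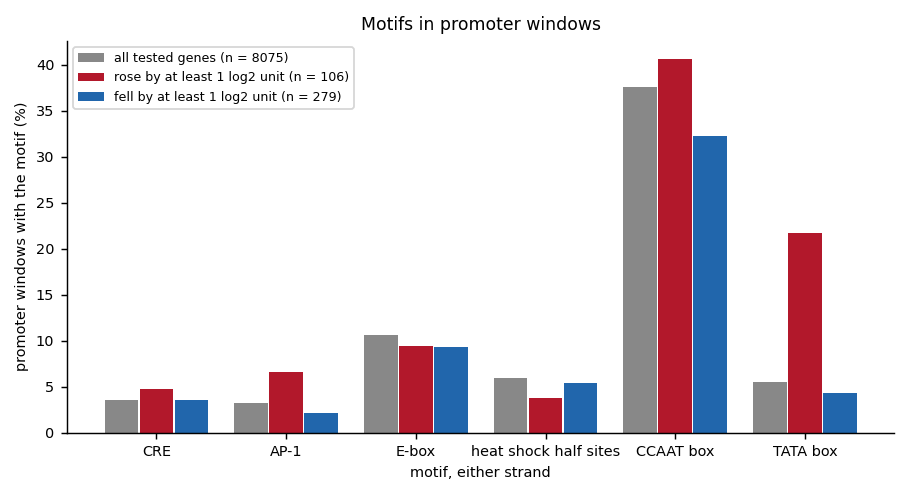
Share of promoter windows (y axis, %) that hold each of 6 motifs on either strand, for all tested genes with a window (grey), genes that rose by at least 1 log2 unit (red) and genes that fell by at least 1 log2 unit (blue). TATAAA shows the widest gap, with the red bar several times the height of the others.

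Windows of genes described here are printed to show where these letters lie, 5′ to 3′ on the gene's strand, with the motif in capitals, from RefSeq on GRCh38.p14. The first 4 are the genes named here with the largest rises whose window held a CRE: MAFF at chr22:38201744-38202043 (plus strand), the MAP kinase phosphatase DUSP1 at chr5:172771146-172771445 (minus strand), PPP1R15A, the eIF2α phosphatase subunit GADD34, at chr19:48872171-48872470 (plus strand), and SLC31A1, the copper transporter CTR1 known to carry platinum drugs, at chr9:113221294-113221593 (plus strand). The CRE began 54, 125, 58 and 92 bases before the gene start.
MAFF: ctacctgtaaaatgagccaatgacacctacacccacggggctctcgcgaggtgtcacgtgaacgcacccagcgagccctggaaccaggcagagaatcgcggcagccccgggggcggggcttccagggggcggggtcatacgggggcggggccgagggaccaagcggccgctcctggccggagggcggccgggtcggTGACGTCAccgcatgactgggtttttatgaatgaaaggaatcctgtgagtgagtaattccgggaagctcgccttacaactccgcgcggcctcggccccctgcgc
DUSP1: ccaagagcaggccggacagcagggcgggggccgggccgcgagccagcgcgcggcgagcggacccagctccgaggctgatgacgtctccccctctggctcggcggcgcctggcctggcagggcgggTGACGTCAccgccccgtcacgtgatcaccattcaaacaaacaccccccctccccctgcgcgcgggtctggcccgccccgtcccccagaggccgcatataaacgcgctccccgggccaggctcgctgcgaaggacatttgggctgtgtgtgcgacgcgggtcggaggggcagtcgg
PPP1R15A: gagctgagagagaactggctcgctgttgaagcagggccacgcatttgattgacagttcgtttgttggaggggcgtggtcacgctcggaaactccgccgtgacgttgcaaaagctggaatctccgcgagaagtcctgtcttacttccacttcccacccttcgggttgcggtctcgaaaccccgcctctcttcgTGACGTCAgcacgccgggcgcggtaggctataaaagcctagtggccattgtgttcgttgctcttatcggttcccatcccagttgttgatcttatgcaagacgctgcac
SLC31A1: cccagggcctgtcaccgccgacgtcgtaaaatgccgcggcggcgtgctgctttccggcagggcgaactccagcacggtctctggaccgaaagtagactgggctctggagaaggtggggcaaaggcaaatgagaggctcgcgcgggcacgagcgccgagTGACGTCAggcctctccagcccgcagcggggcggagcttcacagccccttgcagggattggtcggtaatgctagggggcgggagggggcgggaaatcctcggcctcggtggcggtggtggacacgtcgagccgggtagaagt
The next 3 are the highest of the 35 risers described above whose window held TATAAA, chosen after the motif shares had been seen: FOS at chr14:75278578-75278877 (plus strand), PTGS2 at chr1:186680374-186680673 (minus strand) and CEBPA at chr19:33302485-33302784 (minus strand). In these the motif began 33, 32 and 30 bases before the start.
FOS: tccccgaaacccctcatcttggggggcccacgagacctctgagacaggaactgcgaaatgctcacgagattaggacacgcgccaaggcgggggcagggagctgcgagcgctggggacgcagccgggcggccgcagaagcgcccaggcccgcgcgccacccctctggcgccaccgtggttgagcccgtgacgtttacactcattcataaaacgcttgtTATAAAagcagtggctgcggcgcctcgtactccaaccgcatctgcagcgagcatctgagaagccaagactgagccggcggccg
PTGS2: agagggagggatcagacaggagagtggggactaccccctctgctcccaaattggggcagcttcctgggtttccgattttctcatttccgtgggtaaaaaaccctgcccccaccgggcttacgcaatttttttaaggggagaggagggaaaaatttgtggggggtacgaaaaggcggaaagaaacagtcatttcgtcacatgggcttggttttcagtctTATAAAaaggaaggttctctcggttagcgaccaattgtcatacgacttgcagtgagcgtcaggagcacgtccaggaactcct
CEBPA: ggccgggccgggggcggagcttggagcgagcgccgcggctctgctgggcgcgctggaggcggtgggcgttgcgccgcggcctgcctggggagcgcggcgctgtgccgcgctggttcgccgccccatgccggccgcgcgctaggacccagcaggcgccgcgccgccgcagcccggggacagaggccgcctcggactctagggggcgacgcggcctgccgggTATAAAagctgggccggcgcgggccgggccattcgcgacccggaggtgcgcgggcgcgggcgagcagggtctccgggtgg
The rises of the 4 CRE genes were unequal, from 1.72 for MAFF and 1.0 for DUSP1 to 0.77 for PPP1R15A and 0.37 for SLC31A1. The windows of DUSP1 and PPP1R15A also hold TATAAA, shown in lower case.

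The exchange factors and GTPase-activating proteins of Ras, Rap, Ral and Rab GTPases, which load and unload these switches, gave 15 of 36 lower and 0 higher in limma (0 at an unadjusted p under 0.05), and RAPGEF6 (-1.31), RALGAPA1 (-1.09) and TBC1D4 (-0.96) were among those that fell. The median transcription unit of the members that fell was 143 kb, and the part of length was not tested.

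In the integrin, actin and Hippo lists more members were called lower than higher, against 19.4% lower and 18.2% higher over all genes. Members that fell had median lengths of 154, 183 and 144 kb in that order, and the part of length was not tested. Among integrins and focal adhesion genes 11 of 31 were lower, among them the focal adhesion kinase PTK2 (-1.69), TNS3 (-1.44) and FYN (at least 1.62-fold lower), and 1 was higher, talin TLN1 (0.34), while ITGB1 (-0.12) was not called. Actin regulators gave 11 of 40 lower, with the formin DIAPH3 (-1.22), supervillin SVIL (-1.04) and the kinase ROCK1 (-0.69), and 2 higher, both myosin light chains, MYL12A (0.61) and MYL9 (0.33). Actin itself, ACTB (0.01) and ACTG1 (0.02), was not called. In the Hippo pathway, which restrains YAP and TAZ, 8 of 22 were lower, including both MST kinases, STK3 (-1.65) and STK4 (-0.71), the scaffold WWC1 (-1.50) and TAZ itself, WWTR1 (at least 1.31-fold lower). CCN1 (-0.17), CCN2 (-0.02) and ANKRD1 (0.01), all known YAP targets, were not called. Collagens and other matrix genes gave 18 of 65 higher and 6 lower. With all-probe scaling 5 were higher and 6 lower, so they had no settled direction. Hyaluronan synthases split within this list: HAS3 was at least 3.73-fold higher and HAS2 at least 1.51-fold lower. The urokinase gene PLAU (0.95) and COL6A2 (0.70) rose, and the heparan sulfate polymerase EXT1 (-1.56) and the membrane protease MMP16 (-1.36) fell. Leaving out 1 array lowered some of these counts, to 7 without siCtl+vehicle replicate 1 for integrins and focal adhesion, to 7 without siCtl+vehicle replicate 1 for actin regulators and to 9 without siCtl+vehicle replicate 2 for matrix genes that rose. With all-probe and kept-probe scaling the higher members numbered 1 and 6 for actin regulators, and 27 matrix genes were higher with the latter.

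**Figure D4:**
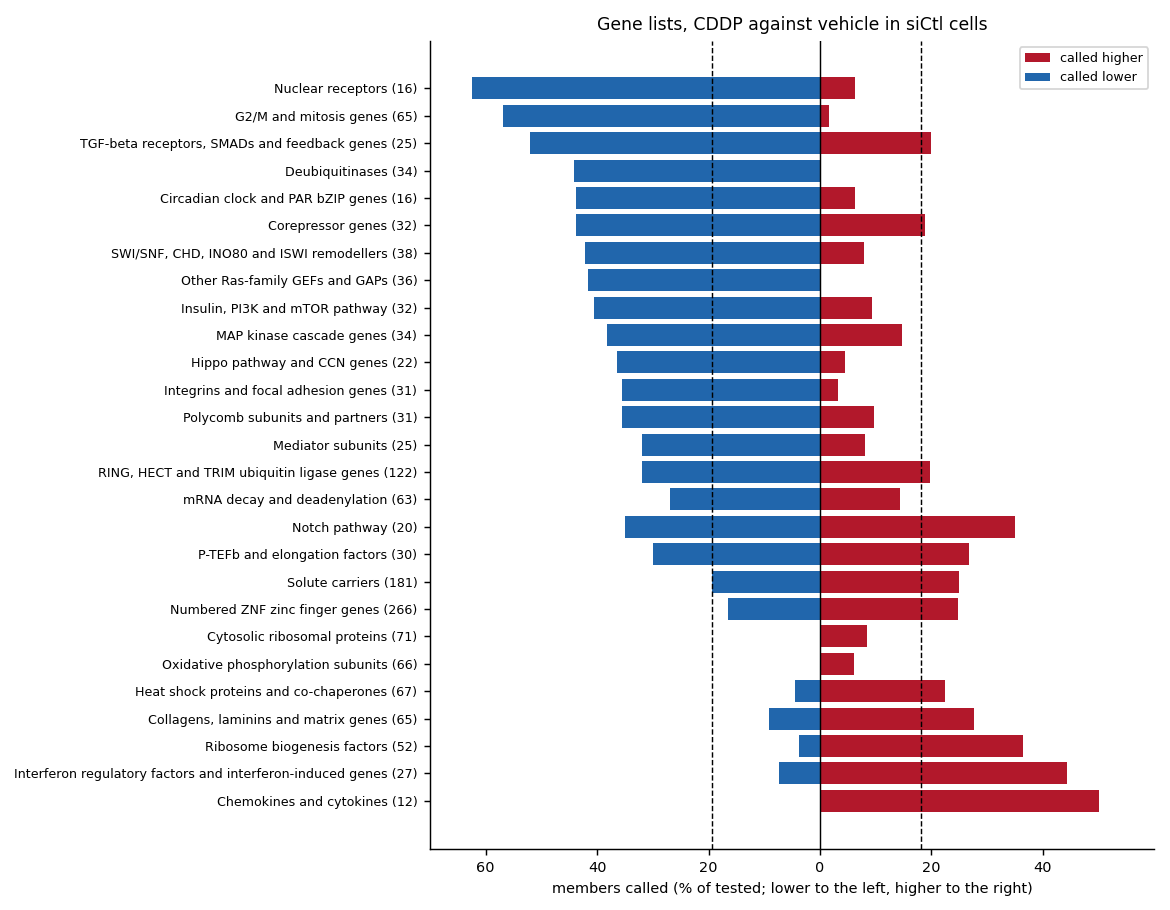
Share of tested members called higher (right, red) and lower (left, blue) with CDDP in siCtl cells for 27 gene lists (rows, with the number of members tested). Dashed lines mark the shares among all 9808 genes tested, 18.2% higher and 19.4% lower, and the nuclear receptors, mitosis genes and TGF-beta genes extend farthest to the left.

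Nuclear receptors, transcription factors on which corepressors are known to act, mostly fell. Of 16 tested 10 were lower and 1 higher, with a median of -0.50, against 19.4% lower and 18.2% higher over all genes. All-probe and kept-probe scaling left the lower count at 11 and 10, and it was 10 in both siNCoR and siSMRT cells. The receptors that fell had a median transcription unit of 131 kb, and the part of length was not tested. RXRA, the shared dimer partner of many receptors, measured 10.27 and 10.12 with vehicle and 8.38 and 8.24 with CDDP. All 4 values were bright, and both CDDP arrays lay below vehicle (log2 fold change -1.89, SE 0.15, adjusted p = 2.24e-06). The mineralocorticoid receptor NR3C2 was at least 2.62-fold lower, the glucocorticoid receptor NR3C1 at least 1.28-fold lower and the orphan receptor NR6A1 at least 1.01-fold lower, and NR2C2 changed by -0.80. The single receptor that rose was the immediate-early orphan NR4A2. The heme receptor NR1D2 (-0.10), ESRRA (0.24) and NR2F6 (0.13) were not called. The clock genes showed a like pattern, with 7 of 16 lower and 1 higher, and a median length of 102 kb for those that fell. Both subunits of the core activator fell, BMAL1 (-1.15) and CLOCK (-0.81), as did the repressor CRY1 (-0.67) and BHLHE40 (-0.55), and NFIL3 (0.52), which opposes the PAR bZIP activators, rose. The lower clock genes numbered 4 without siCtl+CDDP replicate 1.

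In several complexes the share of chromatin regulators called lower exceeded the 19.4% over all genes. Of 38 remodeller genes 16 were lower and 3 higher. Median lengths of fallers were 150 kb for remodellers, 154 kb for corepressors, 94 kb for Polycomb genes and 139 kb for acetyltransferases and deacetylases. Risers of these lists had medians of 22.9, 39.0, 17.9 and 23.6 kb in the same order, and the part of length was not tested. ARID1A, the defining subunit of the BAF complex, measured 10.74 and 10.81 with vehicle and 9.26 and 9.57 with CDDP. Vehicle and CDDP arrays did not overlap (log2 fold change -1.36, SE 0.15, adjusted p = 2.62e-05), and CHD9 (-1.07) fell beside BAZ2B, ARID2 and CHD7, whereas SMARCE1 (0.38) and INO80E (0.29) rose and CHD4 (-0.14) was not called. Corepressor genes gave 14 of 32 lower and 6 higher. They included TBL1X (-1.10), a subunit of corepressor complexes, ARID4B (-1.21) of the SIN3 complex and MTA3 (-0.94) of NuRD, and SAP18 (1.02), also of SIN3, rose. In the Polycomb list 11 of 31 were lower, with SUZ12 (-0.77) and AEBP2 (-0.88) of complex PRC2 next to JARID2, and 3 higher. Histone lysine methyltransferases and demethylases were split, 12 of 34 lower, such as the demethylases KDM6A (at least 1.95-fold lower) and JMJD1C (-1.21), and 9 higher, such as the hypoxia-inducible demethylase KDM3A (0.67). Acetyltransferases and deacetylases gave 6 of 20 lower, among them NCOA1 (-1.65) and CREBBP (-1.26), and 5 higher, among them SIRT1 (0.78). The deacetylase HDAC3 (0.07) was not called. The lower counts dropped to 7 without siCtl+vehicle replicate 1 for Polycomb genes and to 7 without siCtl+vehicle replicate 1 for methyltransferases and demethylases, of which the higher dropped to 5 without siCtl+CDDP replicate 1. The higher members fell to 3 without siCtl+vehicle replicate 2 for corepressors, to 2 without siCtl+vehicle replicate 2 for acetyltransferases and deacetylases, to 1 without siCtl+vehicle replicate 1 for remodellers and to 1 without siCtl+vehicle replicate 1 for Polycomb genes. With all-probe scaling the higher members were 3 corepressors, 1 acetyltransferase or deacetylase, 4 methyltransferases and demethylases, 1 remodeller and 1 Polycomb gene, against lower counts of 15, 5, 13, 15 and 9.

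Genes that control elongation and RNA metabolism divided by member. In the list of P-TEFb and elongation factors 8 of 30 were higher and 9 lower. The bromodomain protein BRD2 had levels of 11.68 and 11.72 with vehicle and 13.02 and 12.96 with CDDP. Its CDDP arrays lay clear of vehicle (log2 fold change 1.29, SE 0.09, adjusted p = 1.07e-06). The P-TEFb cyclins CCNT1 (0.40) and CCNT2 (0.36) and the 7SK capping enzyme MEPCE (0.65) rose, while the elongation kinase CDK13 (-0.99), AFF3 (-1.12) and ELL (-0.75) fell. Mediator gave 8 of 25 lower, with both of its kinases, CDK8 (at least 1.91-fold lower) and CDK19 (-0.96), and 2 higher. Among SR proteins and their kinases the DYRK family parted: DYRK1A fell, and DYRK3 (1.04) and DYRK2 (0.88) rose, as did SRSF6 (0.67) and SRSF2 (0.54), while the SR kinase SRPK2 (-1.40) fell. Of hnRNP and RNA-binding splicing regulators 18 of 68 were lower, including both muscleblind genes tested, MBNL1 (-0.89) and MBNL2 (-1.41), and 13 higher, including RBM15 (0.75) and the p53-regulated RBM38 (0.70). In mRNA decay, 17 of 63 were lower and 9 higher. The deadenylases CNOT6L (at least 2.43-fold lower) and PARN (-1.13), the ligase subunit CNOT4 (-1.10), the Pumilio protein PUM2 (-0.97) and the miRNA effector TNRC6B (-1.22) fell, and the BTG/TOB adaptors that recruit deadenylases, TOB1, TOB2 (0.72) and BTG1 (1.38), rose. Counts that moved most when 1 array was left out were those of elongation factors, to 3 without siCtl+CDDP replicate 2 for higher and 5 without siCtl+CDDP replicate 2 for lower members, and of the splicing regulators, to 5 without siCtl+vehicle replicate 2 and 9 without siCtl+vehicle replicate 1. With all-probe scaling 2 elongation factors, 3 splicing regulators and 6 mRNA decay genes were higher, against 9, 19 and 17 lower, and neither CCNT1 nor CCNT2 was called (limma adjusted p = 0.106 and 0.415).

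Of 52 biogenesis factors 19 were higher and 2 lower, with a median of 0.22 (9 higher with all-probe scaling and 30 with kept-probe scaling). TSR1, a factor of small-subunit maturation, measured 8.46 and 8.50 with vehicle and 9.37 and 9.54 with CDDP (log2 fold change 0.97, SE 0.10, adjusted p = 1.57e-05). The polymerase I and III subunit POLR1C (0.74), NOP16 (0.63), NOLC1 (0.63) and PES1 (0.59) rose with it, and DDX10 (-1.52), with a transcription unit of 276 kb, fell. Of 71 cytosolic ribosomal protein genes 6 were higher and 0 lower in limma (1 at an unadjusted p under 0.05), with a median of -0.01, but 0 were higher with all-probe scaling and 28 with kept-probe scaling, so no direction holds for them. Small nucleolar RNA genes were grouped after their values had been seen, since several stood high in the ranking. In siCtl cells 7 of the 22 called higher lay above the floor only with CDDP, so their rise and the filter are not independent. Of 18 above the floor in both vehicle arrays 12 were higher and 0 lower in limma (0 lower at an unadjusted p under 0.05). SNORD56, with 1 vehicle array under the floor, measured 6.21 and 6.29 with vehicle and 7.87 and 7.67 with CDDP (log2 fold change 1.52, SE 0.11), and SNORD31 (1.29) rose too. These RNAs are encoded within introns of host genes, whose transcripts such probes may also read. The higher biogenesis factors numbered 9 without siCtl+vehicle replicate 1.

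Signalling inhibitors and receptors showed the same contrast between short and long members. Among MAP kinase phosphatases and feedback inhibitors 6 of 17 were higher and 4 lower. DUSP1 had levels of 11.39 and 12.08 with vehicle and 12.80 and 12.68 with CDDP (log2 fold change 1.0, SE 0.17, adjusted p = 0.000758). DUSP2 (0.99), DUSP5 (0.88), DUSP14 (0.73) and SPRY2 (0.72) also rose, and the Ras inhibitors SPRED1 (-0.90) and SPRED2 (-1.65), DUSP16 (-0.43) and DUSP22 (-0.33) fell. The median length was 9.39 kb for the former and 97.0 kb for the latter. In the kinase cascade itself 13 of 34 were lower, such as MAP2K4 (-0.82), which activates JNK, and 5 higher, led by MAP3K8 (1.01), while MAPK3, the kinase ERK1, (0.05) was not called. Growth factor receptors with kinase activity gave 8 of 22 lower, with EGFR (-1.06), IGF1R (-0.87), MERTK (-1.16) and ROR2, and 4 higher, with FGFR3 (1.26) and TYRO3 (0.46). EGFR measured 7.41 and 7.89 with vehicle and 6.59 and 6.59 with CDDP, while its ligand HBEGF rose as given above. Insulin, PI3K and mTOR genes gave 13 of 32 lower, such as FOXO1 (-1.22), PIK3R1 (-0.89) and SGK3 (-0.95), and 3 higher, led by SGK1. The lower counts were 8 without siCtl+CDDP replicate 1 for the kinase cascade and 8 without siCtl+vehicle replicate 1 for insulin, PI3K and mTOR genes. With all-probe scaling 1 cascade gene and 2 receptors were higher, and kept-probe scaling gave 6 higher insulin, PI3K and mTOR genes.

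**Figure D5:**
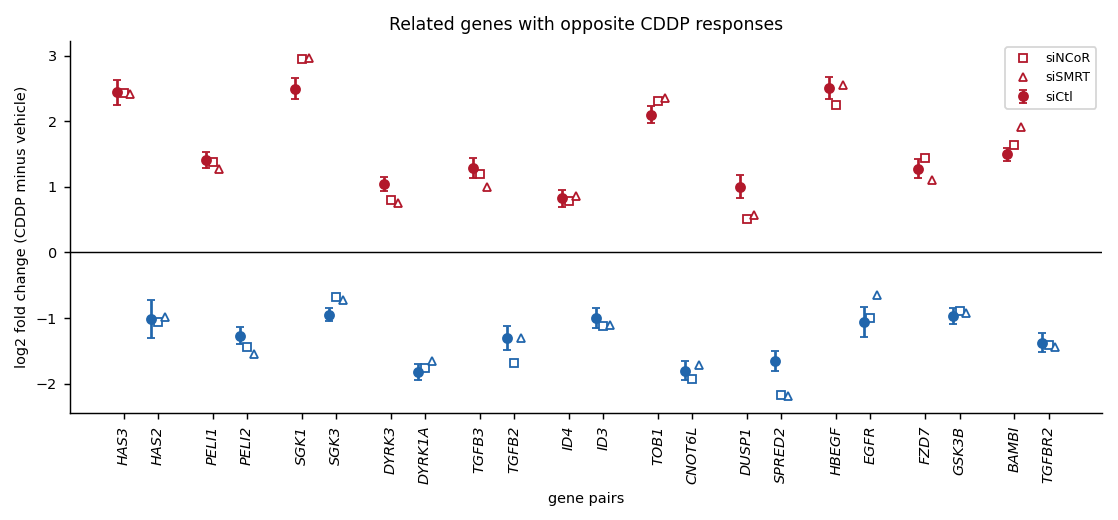
Log2 fold change with CDDP (y axis, CDDP minus vehicle) of pairs of related genes in siCtl (circles, error bars 1 SE), siNCoR (squares) and siSMRT cells (triangles). In each pair the left gene rose and the right gene fell in all 3 backgrounds. The pairs were picked for such opposite responses, and not all of them are paralogs.

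Developmental pathways had members on both sides. In the Notch list 7 of 20 were higher, including the ligands JAG1 (0.72), DLL1 (at least 1.61-fold higher) and DLL3 (0.43) and the target factor HEY1 (0.85), and 7 lower, including the DNA-binding factor RBPJ (-0.85), its corepressor SPEN (-0.83), the inhibitor NUMB (-1.26) and NOTCH2 (-0.51). In the Wnt list the receptors FZD7 (1.27), FZD1 (0.90) and FZD5 (0.86) and the ligand WNT3 (0.99) were among 5 of 28 higher, and the destruction complex genes GSK3B (-0.96), AXIN1 (-0.62) and AXIN2 (-0.63) and the tankyrase TNKS (at least 1.33-fold lower) among 6 lower. Medians of both lists changed sign with scaling. The Wnt shares, 17.9% higher and 21.4% lower, were near those over all genes, 18.2% and 19.4%. In the TGF-beta list 13 of 25 were lower, such as the receptors TGFBR2 (-1.37) and ACVR1 (-1.25), and 5 higher, with BAMBI, a decoy receptor, at 10.67 and 10.50 with vehicle and 12.19 and 11.98 with CDDP (log2 fold change 1.5, SE 0.10, adjusted p = 7.91e-07). The ligand genes TGFB2 (-1.30) and TGFB3 (at least 2.28-fold higher) moved in opposite directions, and so did the 4 ID genes, BMP targets of similar short length, with ID2 (0.74) and ID4 (0.82) higher and ID1 (-0.62) and ID3 lower. BMP2 (1.30) rose and BMP6 (-0.63) fell. Of 8 Hedgehog genes tested, the activator of the pathway SMO (0.59) rose, the effectors GLI2 and GLI3 (at least 1.26-fold lower) fell, and the rest, GAS1 (-0.12), KIF7 (-0.06) and STK36 (0.14) among them, were not called. With all-probe scaling 4 Notch and 3 TGF-beta genes were higher, against 7 and 13 lower.

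Stress-response genes were called higher at some members, at shares that for the integrated stress response, heat shock and NRF2 lists were near or below that over all genes and that moved with scaling. In the integrated stress response list 6 of 27 were higher, with DDIT3 (0.78), PPP1R15A (0.77), SESN2 (at least 1.17-fold higher) and CEBPD (1.02), 1 was lower, SLC7A1 (-0.56), and ATF4 itself (0.32) and PHGDH (0.09) were not called. Heat shock proteins and co-chaperones gave 15 of 67 higher and 3 lower. The inducible HSPA1B, which has a near-identical copy, measured 12.45 and 12.35 with vehicle and 13.63 and 13.34 with CDDP (log2 fold change 1.09, SE 0.11, adjusted p = 1.55e-05), DNAJB4 (0.95) and DNAJA4 (1.07) rose, and HSPB1 (0.01) and HSP90AA1 (0.21) were not called. The endoplasmic reticulum list had 7 of 22 higher, with DNAJB9 (1.14) and XBP1 (0.59), and ATF6 (-0.57) lower. Among glutathione and NRF2 genes HMOX1 (0.81) and GSTM3 (1.04) were among 4 of 31 higher, and TXNRD1 (-0.50) was lower. Metallothioneins, which bind platinum, were not called in the members of highest signal, MT2A (-0.09), MT1X (0.23) and MT1E (-0.05). Their sequences are closely alike, so probes may not separate them. Of 13 platinum and copper transporters SLC31A1 (0.37) and SLC31A2 (0.53) were higher, both by little. The exporters ATP7B (-0.36) and ABCC4 (-0.57) and the channel subunit LRRC8D (-0.33) were lower, also by little. With all-probe scaling 0 of these transporters were called higher. Polyamine genes gave 4 of 14 higher, with the catabolic enzymes SAT1 and SMOX (0.70) and the synthetic ODC1 (0.38). The higher endoplasmic reticulum genes numbered 3 without siCtl+vehicle replicate 2. In a fit with a replicate block ATF4 and MT1X passed the test (limma adjusted p = 0.0391 and 0.0385). Without siCtl+vehicle replicate 1 the lower heat shock genes numbered 0 in limma, and the platinum and copper transporters 1 higher and 1 lower. Without siCtl+CDDP replicate 1 the higher glutathione and NRF2 genes numbered 2, as did the higher polyamine genes. With all-probe and kept-probe scaling the higher members were 4 and 13 in the integrated stress response list, 11 and 27 for heat shock, 4 and 11 for the endoplasmic reticulum, 2 and 13 for glutathione and NRF2 and 2 and 5 for polyamines.

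Of 12 chemokines and cytokines past the floor 6 were higher and 0 lower in limma (0 lower at an unadjusted p under 0.05). Over all genes 18.2% were higher. The cytokine genes IL12A and IL1A, given above as bounds, lay above the floor only with CDDP in siCtl cells. For such genes the rise and the filter are not independent. The neutrophil chemokine CXCL8 measured 9.23 and 9.91 with vehicle and 11.37 and 10.39 with CDDP (log2 fold change 1.31, SE 0.32, adjusted p = 0.00655), and TNFSF9 (1.16) and CCL2 (0.40) also rose. The NF-κB list gave 6 of 19 higher, with the inhibitors TNFAIP3 (0.89) and NFKBIA (0.47), and 3 lower, with the subunit gene NFKB1 (-0.68). Interferon-related genes gave 12 of 27 higher and 2 lower, with ISG15 (0.62), TRIM21 (0.66) and IFIT2 (at least 1.64-fold higher) behind IRF1, while IFI44 (-0.59) and STAT3 (-0.29) fell. With all-probe scaling 7 of them were higher. In the same arrays the summed signal of 11 leukocyte markers went from 1127 and 1174 with vehicle to 1344 and 1388 with CDDP, with 7 of them under the floor in all 4 arrays. Of these markers CD14 (at least 1.09-fold higher), CD3D (0.47) and CD68 (0.42) were called higher, in a cultured line with no leukocytes in its labels, and their part in the counts above was not tested. The higher chemokines and cytokines numbered 3 without siCtl+vehicle replicate 1.

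Ubiquitin system genes were called in both directions, as were 18.2% higher and 19.4% lower over all genes. The higher shares, 19.7% of RING, HECT and TRIM ligases and 14.9% of F-box, KLHL and cullin genes, were near or below the former. The lower shares of these 2 lists were 32% and 27%. Deubiquitinases gave 15 of 34 lower and 0 higher in limma (0 higher at an unadjusted p under 0.05), and USP48 (-0.89), USP37 (-0.82) and STAMBPL1 (-0.77) were among those that fell. RING, HECT and TRIM ligases gave 24 of 122 higher, such as PELI1 (1.41), RNF19B (1.39) and RNF103 (1.15), and 39 lower, such as CBLB (-1.40), ITCH (-1.32), WWP1 (-1.02) and PELI2 (-1.27). The paralogs PELI1 and PELI2 thus moved in opposite directions. PELI1 measured 7.24 and 7.29 with vehicle and 8.81 and 8.54 with CDDP and PELI2 8.20 and 8.01 with vehicle and 6.93 and 6.74 with CDDP, with no overlap between groups in either. The median length was 21.4 kb for ligases that rose and 130.4 kb for those that fell, and the part of length was not tested. Among F-box, KLHL and cullin genes KLHL21 (1.44) and KLHL15 (1.19) were among 11 of 74 higher, and FBXW11 (-1.28), which targets phosphorylated β-catenin and IκB, and FBXL20 (-1.27) were among 20 lower. Proteasome subunits had few calls, with 0 of 40 higher and 2 lower in limma (3 and 2 at an unadjusted p under 0.05), although 14 were higher with kept-probe scaling. The lower F-box, KLHL and cullin genes numbered 12 without siCtl+vehicle replicate 2. With all-probe and kept-probe scaling the higher members numbered 13 and 28 for RING, HECT and TRIM ligases and 7 and 11 for F-box, KLHL and cullin genes.

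Among cell cycle genes, many that act in mitosis fell. Of 65 mitosis genes 37 were lower and 1 higher, with a median of -0.34. Beyond CENPA they included the kinesins KIF18A (-1.33) and KIF20B (-0.97), cyclin F, CCNF (-0.84), and the checkpoint kinase gene BUB1B (-0.82), and PKMYT1 (0.63), which inhibits CDK1, rose. The mitosis genes that fell had a median length of 43.5 kb, against 18.3 kb for those not called and 29.1 kb over all genes. The part of length was not tested. Replication genes were split, 10 of 54 higher (18.5%), such as ORC1 (0.63) and MCM2 (0.48), and 14 lower (25.9%), such as ORC5 (-1.03), ORC2 (-0.73) and E2F3 (-0.92). Over all genes 18.2% were higher and 19.4% lower. CDKN1A (1.05) and CDKN1C (0.84), both inhibitors of cyclin-dependent kinases, rose, and CDK6 (-1.05) and the pocket protein RBL1 (-1.08) fell. Of 39 Fanconi, recombination and checkpoint genes 11 were lower, such as UIMC1 (-1.04), TOPBP1 (-0.83) and BARD1 (-0.54), and 3 higher, such as XRCC3 (0.44). In nucleotide excision repair, the route that removes platinum crosslinks within a strand, XPC (0.43) and ERCC5 (0.49) were among 3 of 26 higher, and the TFIIH kinase subunits CDK7 (-0.38) and MNAT1 (-1.16) among 4 lower. The translesion polymerase REV1 (-0.90) fell. Without siCtl+vehicle replicate 1 the lower mitosis genes numbered 22 and the lower Fanconi, recombination and checkpoint genes 6, and the replication genes called were 4 without siCtl+vehicle replicate 2 for higher and 7 without siCtl+CDDP replicate 2 for lower. In a fit with a replicate block 6 Fanconi, recombination and checkpoint genes and 6 nucleotide excision repair genes were higher. With all-probe and kept-probe scaling the mitosis genes called lower numbered 28 and 25. Replication genes went from 2 higher and 12 lower with the former to 15 and 11 with the latter, so their balance turned. Higher members numbered 0 and 8 for nucleotide excision repair and 0 and 6 for the Fanconi, recombination and checkpoint list, and the lower excision repair genes numbered 1 without siCtl+CDDP replicate 1.

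Glycolysis and hypoxia-response genes rose at a few members, with 8 of 34 higher, including VEGFA (0.76) next to ADM and ANKRD37, and the glucose transporter SLC2A1 (-0.74) lower, while GAPDH (0.03), ENO1 (0.03) and LDHA (0.11) were not called. Oxidative phosphorylation gave 4 of 66 higher and 0 lower in limma (2 lower at an unadjusted p under 0.05, and 32 higher with kept-probe scaling). ATP5MK, a small subunit of ATP synthase, was the exception in size, with 8.44 and 8.48 with vehicle and 9.29 and 9.84 with CDDP (log2 fold change 1.10, SE 0.17). Solute carriers were divided, 45 of 181 higher (24.9%), led by SLC35E4 (1.43), and 35 lower (19.3%), such as SLC2A12 (-1.21). The shares over all genes were 18.2% and 19.4%. The numbered zinc finger genes, many of them repressors with a KRAB domain, gave 66 of 266 higher and 44 lower (22 and 54 with all-probe scaling), so they had no settled direction. Nuclear pore and karyopherin genes gave 18 of 58 lower, such as NUP153 (-0.90) and NUP98 (-0.65), and 2 higher, IPO13 (0.72) and IPO4 (0.61). Leaving out 1 array lowered the higher glycolysis and hypoxia genes to 4 without siCtl+vehicle replicate 1, the lower solute carriers to 21 without siCtl+vehicle replicate 2, the higher zinc finger genes to 38 without siCtl+CDDP replicate 1 and the lower nuclear pore and karyopherin genes to 11 without siCtl+vehicle replicate 2. The replicate block gave 4 higher genes in the nuclear pore list. With all-probe and kept-probe scaling the glycolysis and hypoxia genes called higher numbered 5 and 16. Solute carriers went from 19 higher and 36 lower with the former to 58 and 28 with the latter, so they had no settled direction either.

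The same treatment in siNCoR and siSMRT cells, on arrays that siCtl cells do not share, called 1919 genes higher (19.6%) and 2073 lower (21.1%) in the former and 2088 higher (21.3%) and 2116 lower (21.6%) in the latter. Of the genes higher in siCtl cells 72.6% were also called higher in siNCoR cells and 70.9% in siSMRT cells, which is 67.4% and 60.5% of those 2 lists. For lower genes the shares were 83.4% and 81.1%, or 76.6% and 73.0% of those lists. Of the 144 genes that rose by at least 1 log2 unit in siCtl cells 143 were called higher in both other backgrounds, and of the 328 that fell by as much 326 were called lower in both. All 35 genes at ranks 11 to 45 in each direction were among them. All arrays were normalized together and shared 1 filter and 1 estimate of spread per gene, so these calls are not independent. Responses of siCtl, siNCoR and siSMRT cells were 1.67, 1.10 and 0.73 for TRIB1, and NAV2 changed by -1.84, -1.03 and -0.85, while CMIP changed by -1.81, -1.82 and -1.06. No gene named by the rule used here had a CDDP response that differed from siCtl cells at an adjusted p under 0.05 in limma, in siNCoR or siSMRT cells, although 50 and 102 of these 798 genes had an unadjusted p under 0.05. That is 6.27% and 12.8%, against 4.82% and 9.15% of all genes tested. Many of the named genes were picked for large changes in siCtl cells, and the difference reuses those siCtl arrays. These shares and the responses of TRIB1, NAV2 and CMIP above are therefore not independent of that choice. Over all genes 0 responses differed at an adjusted p under 0.05 in siNCoR cells and 1 in siSMRT cells, that of the zinc finger gene ZXDA, named after its values were seen, which was not called in siCtl cells (0.02) and changed by -1.28 in siSMRT cells (adjusted p of the difference 0.0365).

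Probes without a gene name responded too. Counting every probe past the floor, 2465 of 14801 probes (16.7%) were higher and 2599 (17.6%) lower. Of the 2163 among them with no single gene in the probe annotation, 336 were higher and 315 lower, 33 and 49 by at least 1 log2 unit. Of 2333 genes with several probes past the floor, 11 had probes called in opposite directions, named here after their values were seen: ANTXR1, ARRB1, CGGBP1, CNOT1, ERBB3, FBXW7, NTM, POLR1D, PTPRA, SEC22C and VPS13A. FBXW7, a tumour suppressor ubiquitin ligase with several isoforms, had 1 probe higher, which lay under the floor with vehicle, and 1 lower. POLR1D, a subunit of polymerases I and III, had probes at 0.86 and -0.52. For such genes a single value depends on the probe that is read.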

How the data were processed

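RNA of 12 U2OS cultures was labelled with the Illumina TotalPrep kit and read on Illumina bead arrays. The authors deposited 1 unnormalized table of probe intensities per array, exported with BeadStudio (version not given in the sources used here), which is the input here, and a table of intensities they had processed with Corgon and multi-loess, used as an alternative. Groups followed the sample labels.

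Intensities were background-corrected with normexp (offset 16), quantile normalized and log2 transformed. Probes were kept with a quantile-normalized signal above 100 in both arrays of at least 1 of 6 groups (14801 of 48803), and of those with 1 gene (12638) the probe of highest mean signal stood for the gene. Symbols, lengths and promoters came from RefSeq. One coefficient per group was fitted over all 12 arrays in limma 3.58.1 (R 4.3.3, 6 residual degrees of freedom), with Benjamini-Hochberg adjustment over 9808 genes and a threshold of 0.05. An at-least fold sets the brighter group's mean against, per array of the dimmer group, the higher of the floor and the probe's own signal.

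Genes named were ranks 1 to 45 in each direction, up to 5 called members per list and direction, up to 3 members of a list not called, of highest signal, and the 5 longest risers and 5 shortest fallers, among genes whose same-numbered pairs of siCtl arrays moved alike. The gene lists and comparisons were chosen with earlier results of these data known. Same-numbered arrays deviated from their group means together in all 15 pairs of groups (correlation 0.204 to 0.420, and 0.354 between the siCtl groups), so the replicate number was taken as a pairing found in the data, and replicate 1 was the brighter array in all 6 groups. Replicates correlated at 0.994 to 0.996. In data simulated on these arrays the fit recovered 32 and 34 of 50 changes of 0.5 and -0.5 log2 units and all 50 of 1 and 50 of -1, with 10 false among 176 calls. Some results are not reported here. Alternatives covered scaling, background, filter, probe choice, arrays in the fit, pairing and each array left out.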

Additional observations from a re-analysis of the deposited data

Results flagged for a closer look

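The CDDP response of ZXDA, a zinc finger gene on the X chromosome, differed between siSMRT and siCtl cells by -1.30 on the log2 scale (siSMRT minus siCtl, limma adjusted p = 0.0365 over all genes tested). It was the only gene of 9808 past this threshold in either siRNA comparison, and it was singled out after its values were seen.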

How the results depend on the processing

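The 2 arrays per group and a floor of 100 limit what can be seen, and small changes depend on scaling. Scaled to the median of all probes, 716 genes were higher against 1782, and the 28 genes of the text that lost their call were ADCY2, CCL2, CCNT1, CCNT2, CD3D, CD68, DDIT3, DLL3, DUSP22, ERCC5, FRAS1, INO80E, MCM2, MYL9, NFIL3, ODC1, OPCML, PES1, SLC31A1, SLC31A2, SMARCE1, SUPT3H, SYNE2, TLN1, TXNRD1, TYRO3, XPC and XRCC3. Kept-probe scaling was added after the data had been seen, and there BHLHE40, CDK7, DUSP22, IFI44, PES1, STAT3 and TXNRD1 lost theirs. Among all probes past the floor, 847 were higher and 1339 lower by at least 1.5 times, and 205 and 432 by at least 1 log2 unit.

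A fit with a replicate block, which follows the pairing of arrays, called 2200 genes higher and 2165 lower (2296 and 2232 in a fit of only the 4 siCtl arrays). No called gene of the text lost its call under the block. Besides the counts given in the report, the block gave 5 heat shock, 2 integrated stress response, 2 polyamine and 2 oxidative phosphorylation genes lower and 1 proteasome gene higher.

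With 1 array left out, 1206 to 1816 genes were higher and 1443 to 1933 lower. Both lowest counts came without siCtl+vehicle replicate 1, where ADCY2, AFF3, ATP7B, AXIN2, BARD1, CCL2, CCNT1, CCNT2, CDK7, CXCL8, DDIT3, DUSP22, DUSP5, FRAS1, IFI44, INO80E, IPO4, LRRC8D, MYL9, NOP16, ODC1, OPCML, PES1, PIK3R1, PLAU, ROCK1, SLC31A1, SMARCE1, SPRY2, STAT3, TLN1 and TXNRD1 lost their calls (adjusted p from 0.0507 to 0.355 in limma). Without siCtl+vehicle replicate 2 the genes were AXIN2, BARD1, BHLHE40, CD68, CDK7, FRAS1, HAS2, HMOX1, IFI44, INO80E, LRRC8D, MYL9, NFKBIA, ODC1, OPCML, SLC2A1, SLC31A1, STAMBPL1 and STAT3 (0.0515 to 0.199), without siCtl+CDDP replicate 1 ATP7B, AXIN2, BHLHE40, CCNT2, CDK7, CXCL8, DDIT3, DUSP22, FRAS1, HAS2, HMOX1, IFI44, INO80E, LRRC8D, MYL9, NFKBIA, ODC1, OPCML, SLC2A1, SLC31A1, SMARCE1, SPRY2, STAMBPL1, STAT3 and TLN1 (0.0505 to 0.385) and without siCtl+CDDP replicate 2 ADCY2, AFF3, BARD1, BMP6, CCNT1, CCNT2, CD68, DLL3, FRAS1, IFI44, INO80E, IPO4, LRRC8D, MYL9, NOP16, OPCML, PES1, PLAU, ROCK1, STAT3, TLN1 and TXNRD1 (0.0516 to 0.313). In these fits the lone array of a group is assumed to vary like the other groups. Without a filter on dim probes BARD1, CCNT2, CDK7, DUSP22, FRAS1, IFI44, INO80E, LRRC8D, MYL9, OPCML, PES1, SLC31A1, STAT3 and TLN1 were not called, and with the authors' processed values CCNT2, INO80E, OPCML, PES1, SLC31A1 and TLN1. Of the 310 called genes named in the text 259 stayed called under every alternative that gave a value, and no direction of a called gene turned. Of 96 list counts, 39 moved by over 1.5 times with all-probe scaling, 23 with kept-probe scaling, 16 with no filter and 27 to 34 with 1 siCtl array left out.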
